A study of Mus musculus with 6 samples.

Results

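Hormone-sensing luminal cells are the epithelial cells of the mammary gland that carry the receptors for oestrogen and progesterone, and 8 genes known for these cells are described here: Esr1, Pgr, Foxa1, Cited1, Prom1, Tnfsf11, Greb1 and Calca. They were chosen by name, with earlier results of these data known. Their probe sets are those that the array's annotation assigns to 1 of these symbols alone, and where a gene had several, the brightest on average represents it. Of the 8 genes, 7 were found this way, among 18193 genes in all, and Calca, the calcitonin and CGRP gene, was not analysed here. The arrays measured messenger RNA of whole mammary glands from 4-month-old virgin female mice on an FVB/N background. The groups were 3 wild-type glands (WT 1 to 3) and 3 glands of mice lacking Caveolin-3 (Cav-3KO 1 to 3), with no treatment in either group. Caveolin-3 shapes the membrane pits called caveolae, chiefly in muscle cells. How the knockout allele was made is not given in the sources used here. Nothing in the labels says that the 3 glands of a group came from different mice, so p-values measure the spread between these samples, which may be technical.

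All values are on the log2 scale, where a difference of 1 is a doubling of the signal. Array medians lay between 5.77 and 5.80, and correlations over all probe sets were 0.990 to 0.995 within a genotype and 0.977 to 0.987 between genotypes. The number of arrays limits the precision: an exact permutation test of 3 against 3 allows no p below 0.1. As a level of background, 8 probe sets of Y-linked genes on these female arrays read 1.90 to 3.57. Each gene's level is compared between arrays only, since the brightness of different probe sets does not rank genes. The stage of the oestrous cycle, on which several of these genes depend, is not given in the sources used here.

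In the hormone-sensing cell, oestrogen binds the receptor made from Esr1, which works on chromatin opened by the forkhead protein FOXA1 and switches on targets such as Greb1 and Pgr. Progesterone, through its receptor, then makes the same cells release RANKL, the product of Tnfsf11, and WNT4, which act on neighbouring cells that lack these receptors. This relay drives side branching and the growth of alveoli in the cycle and in pregnancy. Cited1 makes a nuclear cofactor of the oestrogen receptor, and Prom1 makes the surface protein prominin-1, by which hormone-sensing cells can be sorted.

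The 3 genes that passed the test were Prom1, Foxa1 and Esr1, all lower in knockout, and none of the 7 was called higher. Prom1 was 2.99-fold lower, Foxa1 2.48-fold lower and Esr1 1.47-fold lower. Over all 18193 genes 8.51% were called lower and 7.65% higher, at an adjusted p under 0.05 in limma. Without adjustment, 4 of the 7 genes were lower and 0 higher at p under 0.05, against 17.3% and 16.3% of all genes. The 3 knockout arrays lay entirely below the 3 wild-type arrays for 4 of the 7 genes (Esr1, Foxa1, Prom1 and Greb1), as they did for 19.8% of all genes, and entirely above for 0, against 18.5% of all genes. The median difference of the 7 was −0.55, against −0.0091 over all genes. Since the genes were chosen with earlier results of these data known, these comparisons only describe them. In whole glands, fewer cells of a type and less RNA per cell cannot be told apart.

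**Figure D1:**
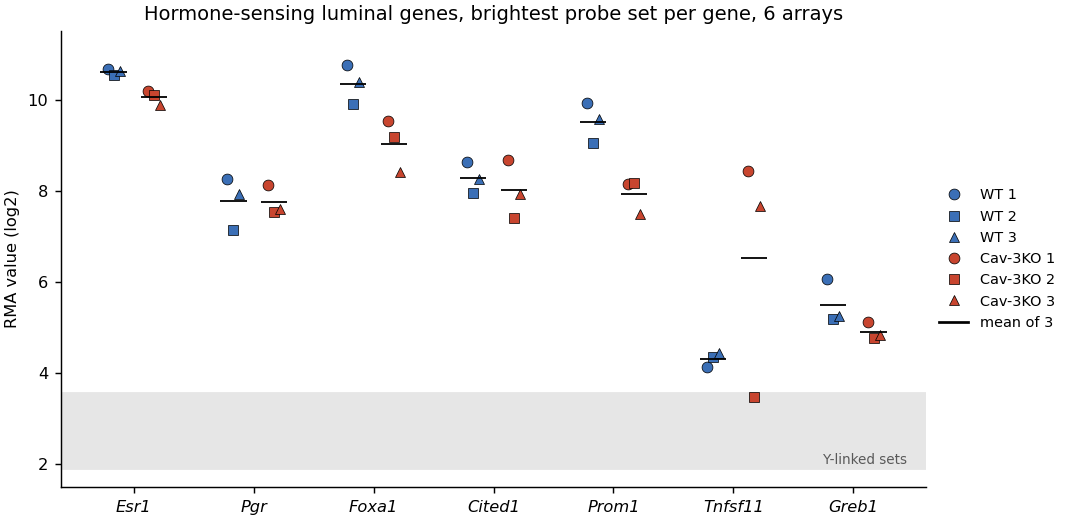
RMA values (log2, vertical axis) of the 7 measured genes on each of the 6 arrays, with WT in blue, Cav-3KO in red, marker shape for the replicate number and a bar for the mean of 3. The grey band is the range of Y-linked probe sets, 1.90 to 3.57. Esr1, Foxa1, Prom1 and Greb1 show 2 separate groups, while Tnfsf11 is high in Cav-3KO 1 and 3 and lies in the band in Cav-3KO 2.

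Upstream sequences are shown for the 3 lower genes and for the oestrogen target Greb1, the 4 members that lay below wild type on all 3 knockout arrays. For Esr1 and Greb1 the window was picked because it holds a motif match, and for Prom1 the first listed was taken. They are 250 bases ending just before an annotated transcription start, 5′ to 3′ in the direction of the gene, from RefSeq (GRCm38.p6), whose reference mouse is not FVB/N. Foxa1 lies on the minus strand (chr12:57546112-57546361), with capitals for a match to the forkhead motif TGTTTAC on the opposite strand, 141 to 135 bases before the start. Esr1 lies on the plus strand (chr10:4709908-4710157, 1 of its 2 annotated windows), with capitals for a match to the STAT motif TTCNNNGAA. Greb1 lies on the minus strand (chr12:16800887-16801136, 1 of 2 windows), with capitals for the oestrogen receptor half-site AGGTCA read on the opposite strand. Prom1 lies on the minus strand (chr5:44101737-44101986, 1 of 2 windows) and held none of the motifs searched, so it has no capitals.
Foxa1: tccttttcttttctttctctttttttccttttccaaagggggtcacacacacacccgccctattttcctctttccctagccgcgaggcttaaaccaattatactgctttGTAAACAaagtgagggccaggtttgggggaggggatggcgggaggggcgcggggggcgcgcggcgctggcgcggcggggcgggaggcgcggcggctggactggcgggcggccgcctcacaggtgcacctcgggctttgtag
Esr1: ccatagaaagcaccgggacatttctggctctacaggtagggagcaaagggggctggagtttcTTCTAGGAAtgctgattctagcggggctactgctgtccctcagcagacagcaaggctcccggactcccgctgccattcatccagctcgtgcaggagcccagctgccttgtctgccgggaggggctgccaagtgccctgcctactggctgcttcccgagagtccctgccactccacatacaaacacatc
Greb1: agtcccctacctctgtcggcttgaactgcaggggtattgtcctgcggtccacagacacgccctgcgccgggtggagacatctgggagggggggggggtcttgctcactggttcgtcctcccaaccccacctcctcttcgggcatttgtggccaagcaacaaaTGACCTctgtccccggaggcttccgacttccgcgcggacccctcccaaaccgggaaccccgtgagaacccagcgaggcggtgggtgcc
Prom1: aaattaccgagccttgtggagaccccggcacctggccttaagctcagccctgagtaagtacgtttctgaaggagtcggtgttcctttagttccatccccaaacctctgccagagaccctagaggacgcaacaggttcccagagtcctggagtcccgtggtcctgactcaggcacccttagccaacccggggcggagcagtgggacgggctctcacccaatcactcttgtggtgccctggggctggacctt

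Matches were sought on both strands in 13 windows of all 8 genes, each from 250 bases before to 50 after a start, and in 32851 windows of all genes. The forkhead motif was in 1 of the 13 windows (Foxa1) and in 3.65% of all windows. The STAT motif was in 1 (Esr1) and in 8.3% of all. The half-site was in 3 (Greb1, Cited1 and Calca) and in 16.3% of all. The full oestrogen receptor palindrome GGTCANNNTGACC, which contains a half-site's core on each strand, was in 0 of the 13 and in 0.07% of all. The progesterone receptor palindrome GNACANNNTGTNC was in 0 of the 13 and in 0.475% of all. These are matches of letters and do not show binding.

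Esr1, the oestrogen receptor alpha gene (Entrez 13982), read 10.68, 10.54 and 10.62 in WT 1 to 3 and 10.19, 10.10 and 9.89 in Cav-3KO 1 to 3. The groups did not overlap, and the spread within wild type was small: 10.61 ± 0.071 (SD, n = 3) against 10.06 ± 0.15. It fell by 0.55 ± 0.10 (SE, 95% interval −0.79 to −0.31, adjusted p = 0.0152). A second Esr1 probe set read 7.91, 7.93 and 7.88 in wild type and 7.25, 7.43 and 7.02 in knockout. It fell by 0.67 ± 0.12 (adjusted p = 0.0118), so both bright sets gave the same direction. The third set was dim, at 4.10 ± 0.033 and 3.82 ± 0.17, and its difference of −0.29 ± 0.11 did not pass (adjusted p = 0.124). The call of the brightest set was lost without WT 1, WT 3 or Cav-3KO 3 (adjusted p = 0.0550, 0.0554 and 0.0513), with differences of −0.52, −0.55 and −0.47.

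Foxa1, the pioneer factor that opens chromatin for the oestrogen receptor (Entrez 15375, 1 probe set), read 10.75, 9.90 and 10.38 in WT 1 to 3. In Cav-3KO 1 to 3 it read 9.53, 9.18 and 8.40. All knockout arrays were below all wild-type arrays, with Cav-3KO 3 lowest. It fell by 1.31 ± 0.31 (SE, 95% interval −2.02 to −0.60, adjusted p = 0.0310). Foxa1 lost its call without the same 3 arrays as Esr1, at differences of −1.11, −1.29 and −0.99 (adjusted p = 0.0915, 0.0955 and 0.0727). Its adjusted p was 0.0526 when limma's prior variance was fitted as a trend on the level with robust estimation.

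Prom1, the gene of prominin-1 (Entrez 19126), read 9.93, 9.05 and 9.57 in wild type and 8.15, 8.18 and 7.49 in knockout. The gap between the lowest wild-type and the highest knockout array separated the groups. It fell by 1.58 ± 0.26 (SE, 95% interval −2.17 to −0.99, adjusted p = 0.00926), and the call held without any 1 of the 6 arrays, at adjusted p up to 0.0390. Its single probe set can match several transcripts of the gene, by the platform's naming.

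Greb1, a classical target that the oestrogen receptor switches on (Entrez 268527), read 6.06, 5.18 and 5.24 in wild type. In knockout it read 5.13, 4.76 and 4.83. The groups did not overlap, but WT 2 lay only just above Cav-3KO 1. The difference of −0.59 ± 0.23 did not pass (adjusted p = 0.143, 95% interval −1.13 to −0.05), and it was −0.31 without WT 1. The next brightest of its 4 probe sets differed by −0.82 ± 0.28 (adjusted p = 0.101), with WT 1 at 5.73 and Cav-3KO 2 at 4.03 as its ends. The 2 dimmest sets differed by −0.20 and −0.12. All 4 sets of Greb1 thus had differences below 0 and none passed.

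Pgr, the progesterone receptor gene (Entrez 18667), did not pass. Its brightest set read 8.26, 7.14 and 7.92 in wild type and 8.12, 7.52 and 7.60 in knockout, and the groups overlapped throughout. The difference was −0.026 ± 0.28 (adjusted p = 0.968), and its 95% interval of −0.68 to 0.63 leaves room for changes as large as that of Esr1. The other 2 sets were dim and differed by −0.13 and 0.16. The sign of the brightest set turned without WT 1, WT 3, Cav-3KO 2 or Cav-3KO 3, at 0.22, 0.048, 0.085 and 0.049.

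Cited1, the receptor cofactor (Entrez 12705, 1 probe set), read 8.62, 7.94 and 8.26 in wild type and 8.68, 7.41 and 7.93 in knockout. Cav-3KO 1 was the highest of all 6 arrays and Cav-3KO 2 the lowest. The difference of −0.27 ± 0.31 did not pass (adjusted p = 0.640), and it was 0.030 without Cav-3KO 2.

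**Figure D2:**
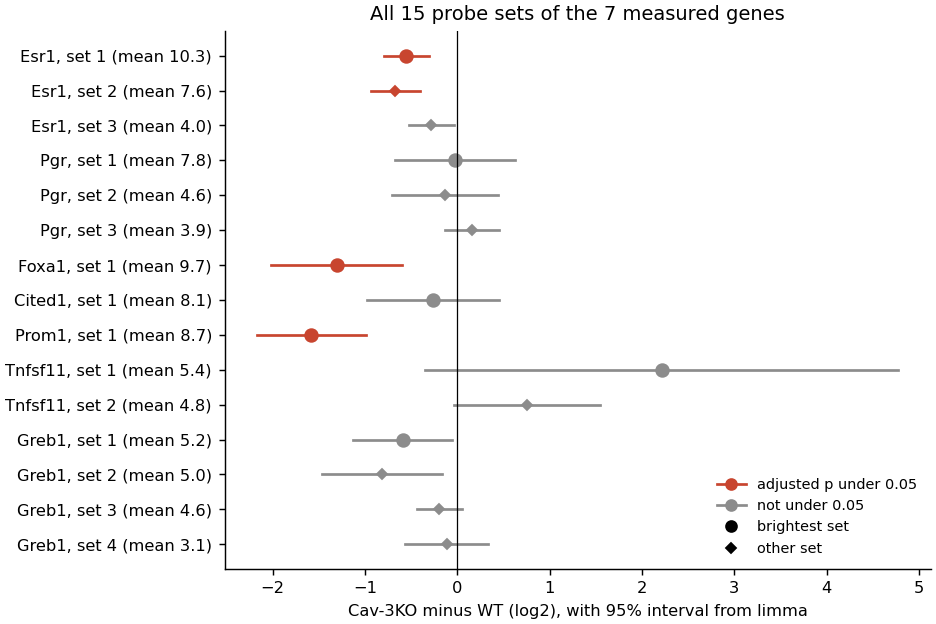
Cav-3KO minus WT (log2, horizontal axis) for all 15 probe sets of the 7 genes, with 95% intervals from limma, 3 arrays a group. Circles are the brightest set of a gene, diamonds the others, and red marks an adjusted p under 0.05. The 4 red sets, 2 of them of Esr1, lie left of 0, and the interval of Tnfsf11 is the widest, from −0.35 to 4.78.

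Tnfsf11, the gene of the progesterone-induced signal RANKL (Entrez 21943), gave the largest difference of the 7 and the most uneven one. It read 4.14, 4.35 and 4.43 in wild type, above the Y-linked level but below the array medians of 5.77 to 5.80. Whether wild type holds true signal at so dim a level was not tested, so the size of any fold is uncertain. In knockout it read 8.43 in Cav-3KO 1, 7.66 in Cav-3KO 3 and 3.46 in Cav-3KO 2, where it lay within that level. The difference of 2.21 ± 1.11 did not pass (adjusted p = 0.245, 95% interval −0.35 to 4.78). Without Cav-3KO 2 it was 3.74 ± 0.22, or 13.4-fold (adjusted p = 0.000565), and without Cav-3KO 1 or 3 it was 1.26 and 1.64, neither past the threshold. Its second probe set read 4.60, 4.38 and 4.39 in wild type and 5.71, 4.29 and 5.62 in knockout. That set shows the same pair of knockout glands above the other arrays, on a smaller scale, with a difference of 0.75 ± 0.34 (adjusted p = 0.203).

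Tnfsf11 was set beside the genes of its own pathway and other paracrine signals. The receptor gene Tnfrsf11a, which encodes RANK, read 5.18, 5.43 and 5.24 in wild type and 5.61, 7.14 and 5.95 in knockout (difference 0.95 ± 0.35, adjusted p = 0.117). Its highest array was thus Cav-3KO 2, the knockout array in which Tnfsf11 was lowest. Tnfrsf11b, the decoy receptor osteoprotegerin, lay between 4.12 and 4.46 on all 6 arrays (difference 0.057 ± 0.11, adjusted p = 0.796). Wnt4, the other signal downstream of progesterone, read 8.81, 8.05 and 8.15 in wild type and 9.67, 8.93 and 9.33 in knockout. It rose by 0.98 ± 0.24 (adjusted p = 0.0380), and lost the call without WT 2, WT 3, Cav-3KO 1 or Cav-3KO 3 (adjusted p = 0.114, 0.124, 0.0941 and 0.116) and with the muscle list mean as a covariate (0.108). Rspo1, a secreted enhancer of WNT signals, read 5.21, 5.15 and 5.13 in wild type and 10.16, 8.72 and 10.66 in knockout, and rose by 4.68 ± 0.42 (adjusted p = 0.00129). In Tnfsf11, Wnt4 and Rspo1 alike, Cav-3KO 2 was the lowest of the 3 knockout arrays. That order was not particular to these signals. The mean of general epithelial markers was 10.10 in Cav-3KO 2 against 10.36 and 10.30 in Cav-3KO 1 and 3. For basal markers it was 9.51 against 9.65 and 9.61, and for fibroblast markers 11.85 against 12.41 and 12.15. The mean of secretory luminal markers went the other way, as given next.

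Cav-3KO 2 was also the highest of the 6 arrays for 6 of the 7 secretory luminal markers, all but Kit. Lalba, the milk protein alpha-lactalbumin, read 12.68 in Cav-3KO 2 against 7.78 and 9.19 in Cav-3KO 1 and 3 and 8.49, 10.02 and 8.41 in wild type. Ltf, lactoferrin, read 13.59 in Cav-3KO 2 against 11.13 and 11.27 in the other knockout arrays, which lay below the 12.47, 12.51 and 12.11 of wild type. The gap was smaller for Csn3, kappa-casein (13.83 against 12.83 and 13.34), and Kit, a receptor of luminal progenitors, was lowest of the knockout arrays in Cav-3KO 2 (9.41 against 10.32 and 9.98). The mean of the list of secretory luminal markers was 11.84 in Cav-3KO 2, 10.43 and 10.70 in the other knockout arrays and 9.91 to 10.39 in wild type. T cells, which also make RANKL, had a list mean of 6.83, 6.81 and 6.94 in Cav-3KO 1 to 3, below the 7.30 to 7.79 of wild type, with 3 of 5 markers lower and 0 higher (0 at an unadjusted p under 0.05) in limma. That count of lower markers, to be set against 8.51% of all genes, was 2 without WT 1 or WT 2. It was 1 without WT 3, Cav-3KO 1 or Cav-3KO 2, and 0 without Cav-3KO 3. The part of these levels in the Tnfsf11 values was not tested.

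**Figure D3:**
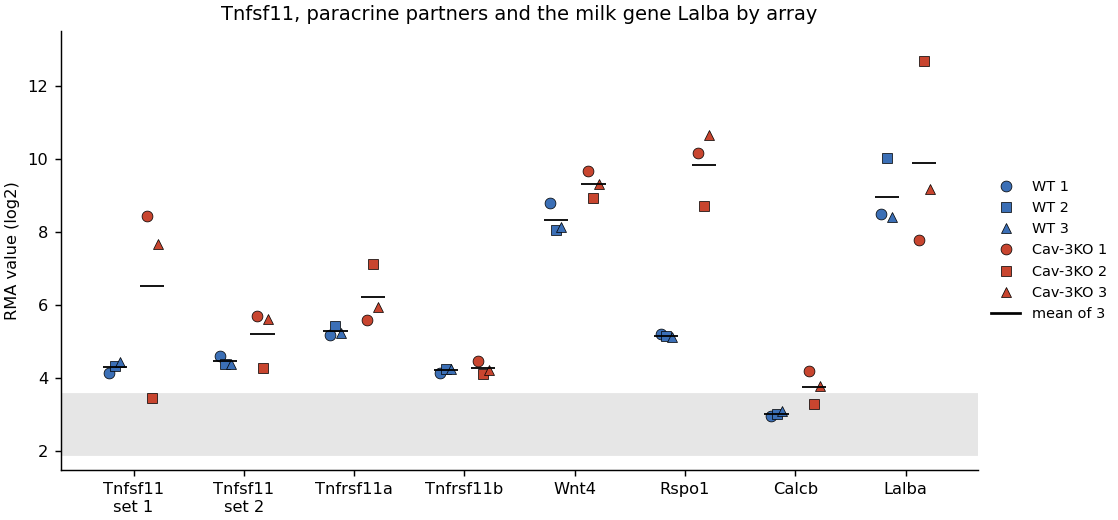
RMA values (log2, vertical axis) of both Tnfsf11 probe sets, of paracrine partners and of Lalba on the 6 arrays, with a bar for the mean of 3 and a grey band for Y-linked sets (1.90 to 3.57). Cav-3KO 2, the red square, is the lowest red marker for both Tnfsf11 sets, Wnt4, Rspo1 and Calcb, and the highest for Tnfrsf11a and Lalba.

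Calca itself has no value here, but genes that take part in its signal do. Its paralogue Calcb, the beta form of CGRP, read 2.97, 3.03 and 3.09 in wild type, within the Y-linked level, and 4.20, 3.29 and 3.79 in knockout. The difference of 0.73 ± 0.21 did not pass (adjusted p = 0.0571), and without Cav-3KO 2 it was 0.96 (adjusted p = 0.00715). With wild type at the Y-linked level, both differences may understate the change and fix no fold. Of the parts of the CGRP receptor, Calcrl differed by −0.56 ± 0.15 (adjusted p = 0.0529, 0.0285 without WT 3 and 0.0486 with the trended robust prior), with all knockout arrays (6.01 to 6.25) below all wild-type arrays (6.40 to 6.99). Ramp1, its partner for CGRP, differed by −0.0059 ± 0.21. Ramp2, which turns Calcrl into the adrenomedullin receptor of endothelium, fell by 0.46 ± 0.10 (adjusted p = 0.0238). That call was lost without WT 1, WT 2, WT 3 or Cav-3KO 3 (adjusted p = 0.0725, 0.0524, 0.0853 and 0.0680). Calcr, the calcitonin receptor, lay within the Y-linked level on every array (2.85 to 3.16). Over all genes 7.65% were higher and 8.51% lower, with a median of −0.0091. In the list of 12 paracrine partners as a whole, 1 was higher (Rspo1), 1 was lower (Ramp2) and 10 did not pass, with a median of 0.036. The count of lower genes was 0 without WT 1, WT 2 or Cav-3KO 3, and 2 with the trended robust prior, Calcrl being added. The count of higher genes was 2 without Cav-3KO 1 (Traf6 added) or Cav-3KO 2 (Calcb added).

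The other receptors and coregulators went both ways. Of 16 listed genes 11 were measured, and 2 were higher, 2 lower and 7 not past the threshold, with a median of −0.10. The shares over all genes were 7.65% higher and 8.51% lower, with a median of −0.0091. Gata3, the luminal lineage factor that acts with the oestrogen receptor and FOXA1, rose by 0.82 ± 0.12 (adjusted p = 0.00710), from 8.37, 8.06 and 7.98 to 9.01, 8.84 and 9.01. Tfap2c, another luminal factor, rose by 1.80 ± 0.19 (adjusted p = 0.00221). Foxa1 and Esr1 were thus lower on the arrays where these 2 partners were higher. The membrane progesterone-binding genes Pgrmc1 and Pgrmc2 fell by 0.45 ± 0.09 and 0.57 ± 0.09 (adjusted p = 0.0212 and 0.00786). Pgrmc1 lost its call without WT 1, WT 2 or Cav-3KO 3 (adjusted p = 0.0619, 0.0690 and 0.0779) or with the muscle covariate (0.0674), leaving 1 gene lower. Esr2, the oestrogen receptor beta gene, differed by 0.063 ± 0.098.

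Genes known to respond to oestrogen or progesterone also split. Over all genes 7.65% were higher and 8.51% lower, with a median of −0.0091. Of 12 listed response genes measured, 2 were higher (Wnt4 and Xbp1), 2 lower (Stc2 and Cxcl12) and 8 did not pass, with a median of 0.057. The count of higher genes was 1 without WT 2, WT 3, Cav-3KO 1 or Cav-3KO 3 and with the muscle covariate. That of lower genes was 1 without WT 1, WT 2 or Cav-3KO 3 and with the muscle covariate. Stc2, a secreted glycoprotein induced by oestrogen, read 8.54, 7.63 and 8.39 in wild type and 7.07, 6.55 and 6.65 in knockout. It fell by 1.43 ± 0.24 (adjusted p = 0.0108), a call that held without any 1 array. Cxcl12, a chemokine of stroma and epithelium, fell by 0.52 ± 0.10 (adjusted p = 0.0189), and lost the call without WT 1, WT 2 or Cav-3KO 3 (adjusted p = 0.0645, 0.0625 and 0.0727) or with the muscle covariate (0.0602). Xbp1, a factor of the secretory pathway, rose by 0.73 ± 0.10 (adjusted p = 0.00550). Tff1, a textbook target of the receptor in breast cancer cells, differed by −0.047 ± 0.083.

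Other markers of the hormone-sensing lineage outside the 8 genes were 5 in number once those not analysed here (Prlr, Ly6a and Areg) were set aside. Wnt4 and the luminal lineage factor Gata3 were higher, as above, against 7.65% of all genes. In limma 0 were lower, against 8.51% of all genes, and 1 was lower at an unadjusted p under 0.05, against 17.3%. Without Cav-3KO 2 the count of lower genes was 1 (Fxyd2), and without WT 2, WT 3, Cav-3KO 1 or Cav-3KO 3 that of higher genes was 1. Tbx3, Msx2 and Fxyd2 differed by −0.29 ± 0.10, −0.36 ± 0.17 and −0.31 ± 0.15 (adjusted p = 0.103, 0.220 and 0.218). 

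The lower values of Esr1, Foxa1 and Prom1 stood beside higher values of general epithelial genes. Of 11 keratin, claudin, adhesion and epithelial regulator genes, 10 were higher and 0 lower (0 at an unadjusted p under 0.05), with a median of 1.20. Their mean was 9.24, 8.67 and 8.86 in WT 1 to 3 and 10.36, 10.10 and 10.30 in Cav-3KO 1 to 3. The count of higher genes was 7 without WT 3, Cav-3KO 1 or Cav-3KO 3. Over all genes 7.65% were higher and 8.51% lower, with a median of −0.0091. Of 8 basal genes 7 were higher, and 5 and 4 without WT 1 or WT 3. Among 7 secretory luminal markers 3 were higher, Elf5, Cd14 and Csn3, and 1 without WT 1, WT 3 or Cav-3KO 3. Without Cav-3KO 2 the count was 4 higher, with Kit added (0.96, adjusted p = 0.0149), and 1 lower, Ltf (−1.17, adjusted p = 0.00451). Elf5, the regulator of the secretory luminal lineage, read 10.67, 10.36 and 9.81 in wild type and 12.08, 12.96 and 12.72 in knockout.

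Fat markers were lower, with 3 of 5 white adipocyte genes past the threshold (2 without WT 1, WT 3, Cav-3KO 2 or Cav-3KO 3) and a median of −0.68. Over all genes 8.51% were lower, with a median of −0.0091. Of 5 fibroblast markers 0 passed in either direction in limma, and 1 was higher and 1 lower at an unadjusted p under 0.05. Stromal and fat cells also carry Esr1, and the part of these cell types in the result was not tested. Of 11 skeletal muscle genes 0 passed in limma (1 lower at an unadjusted p under 0.05). Their mean varied among arrays, at 7.88, 8.72 and 5.67 in WT 1 to 3 and 5.20, 6.46 and 6.96 in Cav-3KO 1 to 3. With that mean as a covariate Esr1, Foxa1 and Prom1 still passed.

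Set against the epithelial mean of the same array, 6 of the 7 genes were lower in every knockout array than in every wild-type array. The log2 differences were then −1.88 for Esr1, −1.36 for Pgr, −2.64 for Foxa1, −1.60 for Cited1, −2.91 for Prom1 and −1.92 for Greb1, and 0.88 for Tnfsf11. On this scale the same held for 94.5% of all genes, the epithelial mean itself being 1.33 higher in knockout, so the count says nothing particular about these genes.

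Among the 7 genes the arrays kept a partly shared order within each genotype. WT 1 was the highest and WT 2 the lowest wild-type array for 6 of the 7 (all but Tnfsf11), the same order as the epithelial mean. In knockout Cav-3KO 1 was highest for 6 (all but Prom1). The lowest array was Cav-3KO 3 for the 3 genes that passed and Cav-3KO 2 for the 4 that did not, namely Pgr, Cited1, Greb1 and Tnfsf11. The epithelial mean was likewise highest in Cav-3KO 1 and lowest in Cav-3KO 2 (10.36, 10.10 and 10.30 in Cav-3KO 1 to 3). The knockout order of those 4 genes is thus also that of the epithelial mean. Replicates of a group have no order in time, and the points share only the gland.

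**Figure D4:**
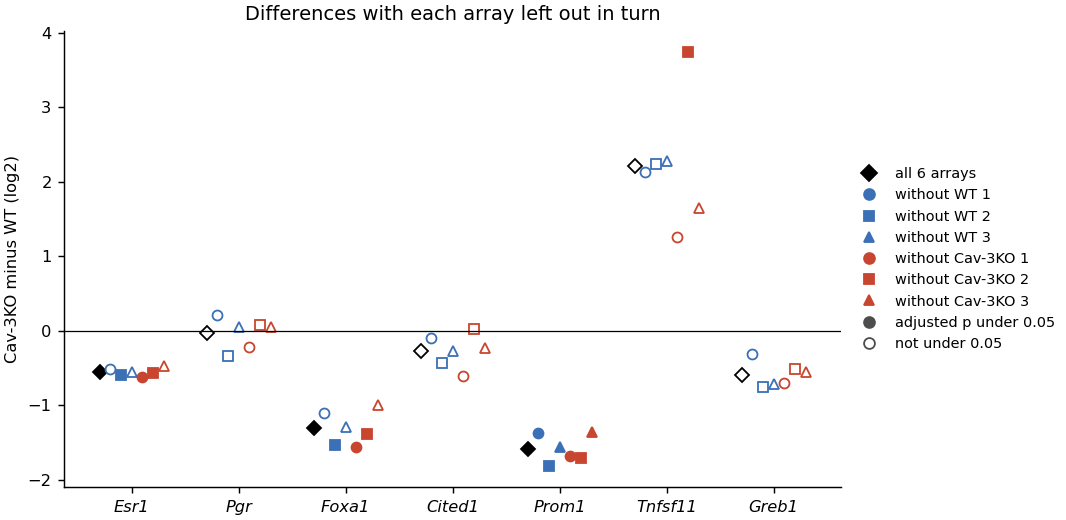
Cav-3KO minus WT (log2, vertical axis) of the 7 genes with all 6 arrays (black diamond) and with each array left out in turn (blue for WT, red for Cav-3KO), filled where the adjusted p was under 0.05. Prom1 stays filled throughout, Esr1 and Foxa1 are open in 3 of the 6, and Tnfsf11 is filled only without Cav-3KO 2.

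For Esr1, Pgr, Foxa1 and Prom1, the genes with the most similar profile were sought among all genes, by the root mean square difference of mean-centred log2 values over the 6 arrays. Closest to Esr1 were Grem1, an inhibitor of bone morphogenetic proteins (0.038), and Aff3, a nuclear protein of the super elongation complex family (0.045). Closest to Foxa1 were Tox2 and Gipc2 (0.17 and 0.19), which fell by 1.62 ± 0.34 and 1.35 ± 0.27. Closest to Prom1 were Tmprss2, a membrane serine protease, and Wfdc2, a secreted whey acidic protein relative (0.12 and 0.16), which fell by 1.69 ± 0.22 and 1.37 ± 0.23. Tox2 read 10.73, 9.81 and 10.19 in wild type and 9.16, 8.80 and 7.89 in knockout, with Cav-3KO 3 lowest as for Foxa1. Closest to Pgr were Eps8l1 and Capn8 (0.14 and 0.18), neither of which passed. Prom1 itself was the fourth closest of all genes to Foxa1 (0.20), a pair singled out after the values were seen.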

How the data were processed

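Total RNA of 6 glands (Trizol) was labelled with biotin as cRNA and read on Affymetrix arrays, as the labels' protocols state. The deposited values are log2 signals, 1 per probe set and array. RMA is the method that the submitters' processing notes name (version not given in the sources used here). RMA corrects background and quantile normalizes the arrays, so a global rise or fall shared by most genes is lost, and folds of dim probe sets come out too small.

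All 45037 probe sets other than 64 control sets were tested with limma 3.58.1 in R 4.3.3 (lmFit, eBayes, two-sided, genotype alone in the model). Adjustment of p-values was by Benjamini-Hochberg over all of them, and a call is an adjusted p under 0.05. The fit was tested on simulated data. Genes were named from the platform annotation (34945 sets with 1 symbol, 932 with several, 9160 not listed), updated through Entrez with RefSeq (204 without a match). Each value is shown with its SD or moderated SE.

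The members and gene lists were chosen with earlier results of these data known. Named are all members, the listed genes past the threshold (at most 4 a list), direct receptors or ligands of the pathway, and the 2 most similar profiles of Esr1, Pgr, Foxa1 and Prom1. Tff1, Esr2, Tbx3, Msx2, Fxyd2, Calcb, Lalba, Ltf, Kit, Traf6, Ccnd1, the profiles like Tnfsf11 and the comparisons of Cav-3KO 2 with other arrays were singled out after values were seen. Listed genes with no single-symbol probe set in the annotation were not analysed here.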

Additional observations from a re-analysis of the deposited data

How the results depend on the processing

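The count of members called lower (3) and higher (0) by limma was 3 and 0 under repeated quantile normalization, cyclic loess, median centring, array weights, averaged probe sets, a filter on dim probe sets, a threshold of 0.1 and the muscle covariate. It was 2 and 0 with the trended robust prior (Foxa1 lost) and without probe sets that can match several transcripts, which leaves Prom1 untested. The dim filter left Greb1 and Tnfsf11 untested. Without 1 array the lower count ranged from 1 to 3 and the higher count from 0 to 1, the 1 being Tnfsf11 without Cav-3KO 2. It was 1 lower at a threshold of 0.01. With the epithelial list mean as a covariate, which nearly separates the genotypes, it was 0 lower. In that fit genotype and the covariate can hardly be told apart, so the size of a difference is not read as a stronger fall. The adjusted p in limma was 0.669 for Greb1 and 0.996 for every other measured member. The differences of Esr1, Foxa1 and Prom1 were larger, with larger SEs (−0.80 ± 0.41, −2.84 ± 1.03 and −2.94 ± 0.85). Those of Pgr, Cited1 and Greb1 grew as well, to −2.42 ± 0.59, −2.53 ± 0.82 and −2.62 ± 0.44, and that of Tnfsf11 turned to −1.94 ± 4.00. Scaled to that list it was 6 lower and 1 higher, but then 43773 probe sets were lower and 185 higher over the array, against 2960 and 2587 before, with a median shift of −1.34. Differences turned sign for Pgr on its dimmest probe set (0.16) and without single arrays (−0.34 to 0.22), and for Cited1 without single arrays (−0.61 to 0.030). The cause was not tested. Deviations from the genotype mean correlated at −0.0542, 0.185 and −0.0179 between same-numbered arrays over 45037 probe sets. Between differently numbered arrays they correlated at −0.195 to 0.26. Among the members, WT 1 and Cav-3KO 1 were each the highest of their genotype for 6 of 7. With the replicate number as a block the SE was smaller for every measured member but Esr1. For Pgr it was 0.15 against 0.28, and for Cited1 0.13 against 0.31. With the replicate block 4 members were lower, Greb1 being added (adjusted p = 0.0399), and so were Calcrl (lower, 0.0265) and Ccnd1 (higher, 0.0453) in the lists. Gene lists without single arrays, with the block, with the muscle covariate and with another prior were alternatives chosen after seeing the data.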

Other observations

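Genes most like Tnfsf11 were sought in the same way, after its values were seen. Speer4cos was the closest, with a root mean square difference of 0.86 on the log2 scale, and Lrrc15, a membrane protein of activated fibroblasts, followed at 0.94. Speer4cos read 5.12, 4.43 and 4.73 in WT 1 to 3 and 7.88, 5.15 and 6.81 in Cav-3KO 1 to 3. Lrrc15 read 7.08, 5.87 and 6.71, then 9.38, 6.59 and 8.31. Both were lowest in Cav-3KO 2 among the knockout arrays, and neither passed (adjusted p = 0.0827 and 0.165). Cenpp was the third closest (0.99) and did not pass in limma (adjusted p = 0.0861). The cell division gene Ccnb2 was the fourth (1.06), at 9.18, 7.38 and 9.60 in knockout, and did not pass either (adjusted p = 0.0986). Beside the 0.038 to 0.19 of the closest genes to Esr1, Pgr, Foxa1 and Prom1, these likenesses are loose.

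Madcam1, a vascular adhesion molecule, rose by 1.57 ± 0.23 (adjusted p = 0.00619), while Cr2, a receptor of B cells and follicular stroma, fell by 0.98 ± 0.15 (adjusted p = 0.00809). For lymph nodes, where stroma also makes RANKL, only these 2 listed genes were measured, and they moved in opposite directions. Neither need be limited to lymph nodes, so the content of node tissue cannot be read from them.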
